A study of Mus musculus with 21 samples.

Results

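The miR-30 family is a group of mature miRNAs that come from hairpins with closely related sequences, each of which can give a 5p arm and a 3p arm. Its members were taken by name from the table of mature miRNAs, as 5 of the 5p arms and 5 of the 3p arms: mmu-miR-30a-5p, mmu-miR-30a-3p, mmu-miR-30b-5p, mmu-miR-30c-5p, mmu-miR-30c-1-3p, mmu-miR-30c-2-3p, mmu-miR-30d-5p, mmu-miR-30d-3p, mmu-miR-30e-5p and mmu-miR-30e-3p. All 10 were found, of 1647 miRNAs in the table. Small RNA was sequenced from the cochlea and from the superior olivary complex (SOC), a group of auditory nuclei in the brainstem, of wild-type (WT) untreated mice at embryonic day 16 (E16), at birth (P0) and at postnatal day 16 (P16), after hearing onset. There were 2, 4 and 4 cochlear libraries of these ages in turn, and 4, 4 and 3 SOC libraries. Cochlear libraries were made from dissected sensory epithelium of C57BL/6JOlaHsd mice and SOC libraries from C57Bl6/J mice, of both sexes, and tissue of several animals was pooled. For the cochlea the Direct-zol (RNA) and SMARTer smRNA-Seq (library) kits were used, and for the SOC the innuPREP and TruSeq Small RNA kits, so that organ, kit and strain cannot be told apart and levels are not compared between the organs.

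A miRNA guides Argonaute proteins to messenger RNAs that pair with its seed, the bases near its 5′ end, and lowers their output. Members with the same seed therefore share most predicted targets, while the opposite arm of the same hairpin has another seed and other targets. The 5p arms of miR-30 are known from many tissues as regulators of differentiation, and in the nervous system and the inner ear miRNAs as a class are needed for neurons and hair cells to form and survive.

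Mature sequences from RefSeq, build GRCm38.p6, were matched by name for 7 of the 10 members and for 1415 of the 1647 miRNAs of the table. They are shown because the seed groups the members and because small differences outside the seed decide whether reads of 2 members can be separated. Capitals mark the seed, bases 2 to 8 counted from 1 at the 5′ end. The seed GUAAACA is shared by 3 of the 5p arms, miR-30a-5p at chr1:23272274-23272295 on the plus strand, miR-30c-5p, which is encoded at chr1:23291714-23291736 on the plus strand and again at chr4:120769584-120769606 on the minus strand, and miR-30e-5p at chr4:120772660-120772681 on the minus strand.
miR-30a-5p: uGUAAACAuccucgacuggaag
miR-30c-5p: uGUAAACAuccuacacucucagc
miR-30e-5p: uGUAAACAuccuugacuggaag
The seed UUUCAGU is shared by miR-30a-3p at chr1:23272315-23272336 on the plus strand and miR-30e-3p at chr4:120772618-120772639 on the minus strand.
miR-30a-3p: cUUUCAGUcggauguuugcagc
miR-30e-3p: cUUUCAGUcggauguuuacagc
The seed UGGGAGA is shared by the 2 3p arms of miR-30c, miR-30c-1-3p at chr4:120769546-120769567 on the minus strand and miR-30c-2-3p at chr1:23291754-23291775 on the plus strand.
miR-30c-1-3p: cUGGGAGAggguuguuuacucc
miR-30c-2-3p: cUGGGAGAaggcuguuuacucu
The members miR-30b-5p, miR-30d-5p and miR-30d-3p have no sequence here.

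From miR-30a-5p to miR-30e-5p the sequence differs by 1 base, C13U, and from miR-30a-3p to miR-30e-3p also by 1 base, G18A, both outside the seed. The 3p arms miR-30c-1-3p and miR-30c-2-3p differ by 3 bases, G9A, U12C and C22U. From miR-30a-5p to miR-30c-5p there are 5 differences, C13A, G14C, G18C, G19U and A20C. How reads that match several miRNAs were counted is not given in the sources used here, so the split of counts between miR-30a and miR-30e on either arm is uncertain, and the counts of miR-30c-5p cannot be assigned to either of its hairpins.

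The hairpins lie in 3 pairs in the mouse genome. In the GRCm38 gene annotation Mir30a was intergenic and Mir30c-2, at a distance of 19361 bases from it on chromosome 1, lay in an exon of the lincRNA Gm27028. Mir30c-1 and Mir30e, 2983 bases apart on chromosome 4, both lay in an intron of Nfyc on its strand, a gene that encodes a subunit of the transcription factor NF-Y. Mir30b and Mir30d, 3697 bases apart on chromosome 15, lay in exons of noncoding transcripts, Mir30b in Gm26621 and Mir30d in Gm20732 and Gm37296.

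The depth differed widely between the organs. The total count per library had a median of 196885 in the 10 cochlear libraries, from 124400 to 447419, and of 11706138 in the 11 SOC libraries, from 8309669 to 18053698. Levels are given as CPM, counts scaled to a common library size, with factors from the trimmed mean of M values (TMM) within each organ. The limit that a count of 0 allows, 3 counts, was worth 5.21 to 23.4 CPM in the cochlea and 0.136 to 0.349 CPM in the SOC. PCR copies of a molecule were counted like separate molecules, so this limit covers counting error only. The p-values measure the spread between these libraries, each of which is a separate sample in the labels, and no pair of libraries of a group agreed within sampling noise (lowest chi-square per degree of freedom 5.95 over 28 pairs).

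The SOC libraries fell into 3 sets that the labels do not name, and this bears on the results. In 4 of them, E16 replicates 2 and 3 and P0 replicates 2 and 3, miR-99b-5p took over 10% of the counts (set A). In 3 of them, P0 replicate 4 and P16 replicates 2 and 3, miR-191-5p took under 1% (set C), and the remaining 4, E16 replicates 1 and 4, P0 replicate 1 and P16 replicate 1, made set B. Set A holds no P16 library and set C no E16 library, so where a model with the set as a covariate, or set B by itself, turns the direction of an SOC fold change, that value is printed too.

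The tissue labels were read against marker miRNAs. In the cochlea the miR-183 cluster of hair cells and sensory neurons (3 of 3 listed miRNAs in the table) summed to 16693 to 55891 CPM over the 10 libraries, with miR-183-5p the most abundant. In the SOC the neuronal miRNAs miR-9-5p, miR-124-3p and miR-128-3p summed to 24754 to 116635 CPM over the 11 libraries, with miR-9-5p the most abundant. The miR-183 cluster was also high in the SOC at E16, at 85041 to 164668 CPM in 4 libraries, and lay at 521 to 3502 CPM in the 3 libraries at P16.

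The 5p arms of miR-30b and miR-30c made up most of the family's counts in both organs. In the cochlea miR-30a-5p and miR-30e-5p had 0 counts. Whether their reads could be counted there is not given, so the cochlear shares cover the counted members only. In the cochlea miR-30c-5p alone gave 67.3% to 88.6% of the family's counts and miR-30b-5p 2.88% to 17.7%, over 10 libraries. In the SOC miR-30b-5p gave 40.5% to 66.4% and miR-30c-5p 26.8% to 52.3%, over 11 libraries. The 5 members of the 3p arm together gave 4.13% to 23.5% of the family's counts in the cochlea and 4.43% to 10.1% in the SOC.

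As a share of all counts the family was highest at E16 in the cochlea. There it took 2.10% and 2.27% of the library in the 2 E16 libraries, 0.581%, 0.570%, 0.577% and 0.762% in the 4 P0 libraries and 1.70%, 0.905%, 0.770% and 0.636% in the 4 P16 libraries. The E16 libraries lay above all others, and of the P16 libraries replicate 1 stood well above the rest. In the SOC the share was 0.201% to 0.261% at E16 (n = 4), 0.187% to 0.338% at P0 (n = 4) and 0.114% to 0.147% at P16 (n = 3). The 3 P16 libraries lay below all SOC libraries of the earlier times. These shares were not tested.

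Among the members counted in the cochlea, the order of the levels was led by miR-30c-5p at every time. At E16 its mean was 14419.8 ± 1269.5 CPM (SD, n = 2), followed by miR-30b-5p at 1590.4 ± 53.9 and miR-30e-3p at 343 ± 100.3. Next came miR-30a-3p at 151 ± 9.96, miR-30c-2-3p at 106 ± 57.1 and miR-30c-1-3p at 97.7 ± 7.91 CPM, and the ranges of neighbours overlapped among these last 3. At P0 miR-30c-5p stood at 5656 ± 1174 CPM (n = 4), and the next 5, from miR-30b-5p at 324 ± 120.3 to miR-30e-3p at 139.5 ± 18.8, overlapped with their neighbours. At P16 it stood at 8556 ± 4528 CPM (n = 4), above miR-30b-5p at 1335 ± 1172, and again the 5 members from miR-30b-5p to miR-30e-3p (219 ± 131) overlapped with their neighbours.

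In the SOC the order was led by miR-30b-5p and miR-30c-5p, whose ranges overlapped at E16 and P0. Their means were 1231 ± 198 and 1082 ± 387 CPM at E16 (n = 4), 1177 ± 359 and 903 ± 274 at P0 (n = 4) and 810.2 ± 166 and 404 ± 169.7 at P16 (n = 3), where the ranges no longer overlapped. Then came miR-30c-2-3p, with group means of 63.7 to 87.1 CPM, and miR-30c-1-3p, with 34.3 to 48.9 CPM, which overlapped with each other at all 3 times, and at P0 miR-30c-1-3p also overlapped with miR-30d-3p. The remaining 6 members had group means of 0.633 to 10.4 CPM and neighbours in their order overlapped.

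Some 5p arms were missing from the cochlear counts although their 3p partners were there. Both miR-30a-5p and miR-30e-5p had 0 counts in all 10 cochlear libraries, while miR-30a-3p had 26 to 91 counts and miR-30e-3p 14 to 238. The sources do not say whether reads of these 5p arms could be counted in the cochlear libraries, so no limit on their level or on the ratio of the arms is given. In the SOC, with another kit, both 5p arms were counted in all 11 libraries, miR-30a-5p with 13 to 119 counts against 4 to 46 of miR-30a-3p, and miR-30e-5p with 1 to 29 counts against 5 to 24 of miR-30e-3p. The levels were low, at 1.13 to 9.25 CPM for miR-30a-5p and 0.0869 to 1.57 CPM for miR-30e-5p. The miR-30d arms were near the limit in the cochlea, with 0 to 3 counts of miR-30d-5p and 0 to 8 of miR-30d-3p, and no fold change is printed or drawn for them there. They count among the 8 members tested in the cochlea, so no median over the members is given for that organ or for the differences between organs. Outside the family list, miR-30b-3p had 8 to 57 counts in the cochlea and 480 to 894 in the SOC, and miR-30f had 0 to 4 and 0 to 3.

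For each organ P0 and P16 were compared with E16, and P16 with P0, to follow the family from before birth to after hearing onset. The comparisons within an organ share libraries, so their values stand side by side and are not independent. Differentially expressed (DE) here means that a miRNA met 3 conditions: its fold change passed 1.5, the libraries of the compared times did not overlap, and its p from edgeR's quasi-likelihood test, adjusted by Benjamini-Hochberg over all miRNAs tested in the organ (FDR), was under 0.05. In the cochlea 8 members were tested among 896 miRNAs, and in the SOC all 10 among 694. A miRNA was tested if 2 or more libraries of some age exceeded 1 CPM. A single count was worth 1.74 to 7.79 CPM in the cochlea and 0.0452 to 0.116 CPM in the SOC. The cochlear shares of all miRNAs can therefore include miRNAs whose very few counts limit the test. These shares are not comparable between the organs. Each library is bulk tissue, so fewer cells that carry a miRNA and less of it per cell cannot be told apart.

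Between E16 and P0 in the cochlea the leading 5p arms fell. The 5p arms miR-30b-5p and miR-30c-5p, the most abundant of the counted members, and the 3p arm miR-30e-3p were lower at P0, by 4.92-fold, 2.55-fold and 2.45-fold. The 3p arms miR-30a-3p, miR-30c-1-3p and miR-30c-2-3p did not pass the test. Of the 8 members tested 3 were DE, all lower, against 24.4% of the 896 miRNAs in either direction and 16.6% lower. The median log2 fold change over all 896 was 0.

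The level of mmu-miR-30b-5p was 1552 and 1629 CPM (571 and 937 counts) in the 2 E16 libraries and 353, 166, 456 and 321 CPM (66, 34, 71 and 58 counts) in the 4 P0 libraries. All P0 libraries lay far below both E16 libraries. The log2 fold change was −2.30 (SE 0.405, edgeR FDR 3.45e-07), and lower in 4 of 4 P0 libraries. It remained DE under all 18 alternatives run for it, with log2 fold changes from −2.77 to −2.11.

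The level of mmu-miR-30c-5p was 13522 and 15318 CPM at E16 and 4683, 4980.2, 5654 and 7309 CPM at P0. The groups did not overlap, with P0 replicate 4 the highest of its group. The change on the log2 scale was −1.35 (SE 0.386, FDR 0.00374). It lost the call with all 21 libraries in a single model (log2 fold change −1.34, FDR 0.137).

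The level of mmu-miR-30e-3p was 272 and 414 CPM (100 and 238 counts) at E16 and 166, 132, 122 and 139 CPM (31, 27, 19 and 25 counts) at P0. The lower E16 library still lay above every P0 library. On the log2 scale the fold change was −1.29 (SE 0.477, FDR 0.0298), and the call rested on single libraries. Without E16 replicate 1 the FDR was 0.0744 (log2 fold change −1.53) and without E16 replicate 2 it was 0.289 (−1.08). Without P0 replicates 2, 3 or 4 it was 0.0618, 0.0608 or 0.0677, at −1.30, −1.25 and −1.29. With all 21 libraries in a single model it was 0.190, at −1.30.

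The arms miR-30a-3p, miR-30c-1-3p and miR-30c-2-3p had log2 fold changes above 0 at P0 that did not pass the test. For miR-30a-3p it was 0.23 (SE 0.483, FDR 0.760), for miR-30c-1-3p 0.57 (SE 0.527, FDR 0.435) and for miR-30c-2-3p 0.42 (SE 0.521, FDR 0.578). With library totals in place of TMM, miR-30a-3p and miR-30c-2-3p turned below 0, at −0.23 and −0.06, and miR-30c-1-3p was at 0.12 (FDR 0.917). The value of miR-30c-2-3p rests on the E16 pair, at −0.19 without replicate 2 and 1.11 without replicate 1, neither of which passed. Library totals moved the median of all miRNAs by −0.38 in P0 vs E16 and by −0.50 in P16 vs E16 in the cochlea, and by 0.12 in P0 vs E16 in the SOC. Relative to the median of all miRNAs under library totals, the 3 DE members changed by −2.40 (miR-30b-5p), −1.44 (miR-30c-5p) and −1.36 (miR-30e-3p), and their direction was the same under TMM, RLE size factors, library totals and DESeq2.

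**Figure D1:**
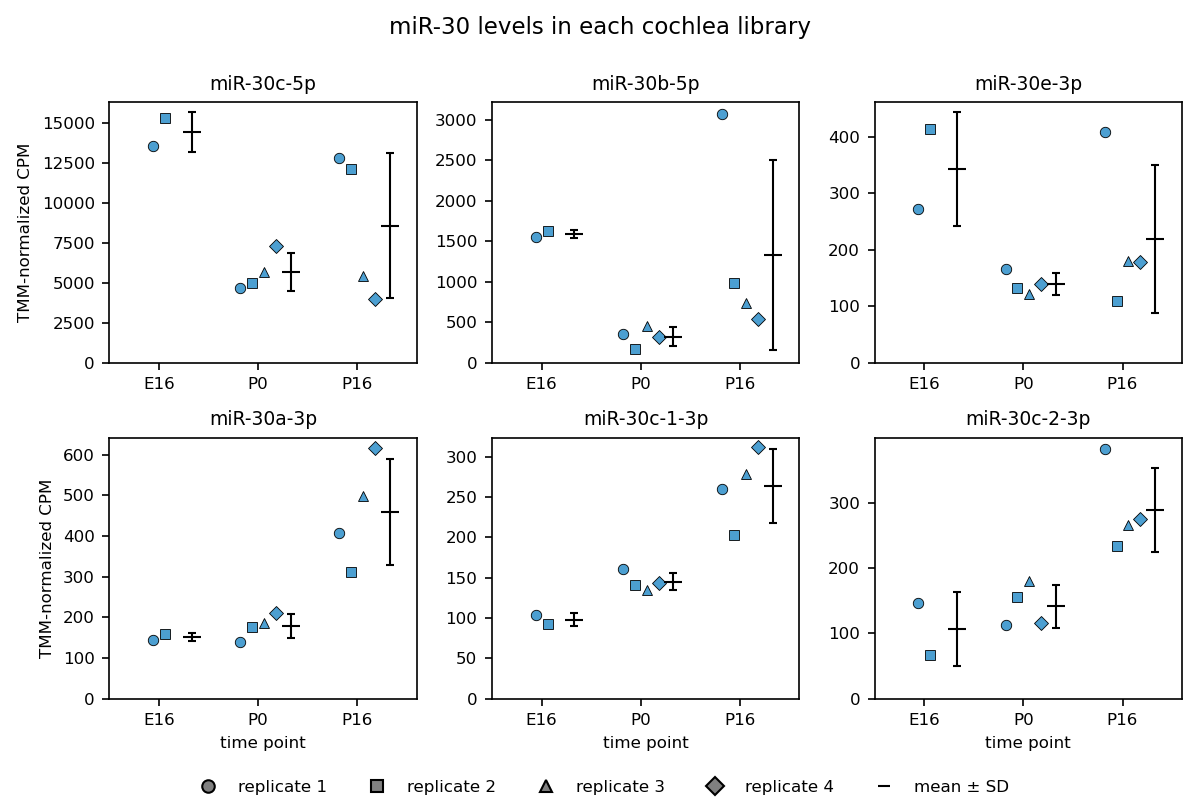
Levels of 6 miR-30 members in each cochlear library (vertical axes, TMM-normalized CPM; horizontal axes, time point; marker shape, replicate number; bars, mean ± SD of 2 libraries at E16 and 4 at P0 and P16). At P0 miR-30b-5p lies between 166 and 456 CPM, below both E16 libraries at 1552 and 1629, while miR-30a-3p at P16 lies between 311 and 617, above every earlier library.

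Marker miRNAs of several cell types moved in the cochlea along with these members. The epithelial list (7 of 7 in the table, miR-429-3p the most abundant, none at 0) summed to 14713 and 22593 CPM at E16, to 7808, 6457, 5660.2 and 6672 CPM at P0 and to 7054, 2499, 5586 and 5779 CPM at P16. The miR-183 cluster (3 of 3, none at 0) summed to 52240.0 and 55891 CPM at E16 and to 33753 to 38017 CPM at P0 (n = 4). The neuronal list (3 of 3, none at 0) summed to 3289 and 2784 CPM at E16, with miR-128-3p the most abundant, and to 617 to 1225 CPM at P0, with miR-9-5p the most abundant. The list for mesenchyme and cartilage (4 of 5 in the table, miR-214-3p the most abundant, none at 0) was higher at P0, with 51327 and 48207 CPM at E16 and 64839, 77964, 52985 and 72986 CPM at P0. The part of these cell types in the fall of the miR-30 members was not tested.

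Between E16 and P16 in the cochlea 3 of the 3p arms rose and the 5p arms did not pass the test. The partner arm miR-30a-3p was 3.02-fold higher at P16, and the arms miR-30c-1-3p and miR-30c-2-3p, which share a seed, were 2.69-fold and 2.75-fold higher. The 5p arms miR-30c-5p and miR-30b-5p and the 3p arm miR-30e-3p, which shares a seed with miR-30a-3p, had log2 fold changes below 0 that did not pass. Of the 8 members tested 3 were DE, all higher, against 29.6% of the 896 miRNAs in either direction and 10.9% higher. The median log2 fold change over all 896 was −0.09.

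The level of mmu-miR-30a-3p was 144 and 158 CPM (53 and 91 counts) at E16, 139, 175, 186 and 211 CPM (26, 36, 29 and 38 counts) at P0 and 408, 311, 498 and 617 CPM (80, 40, 75 and 83 counts) at P16. Every P16 library lay above every earlier library, and E16 and P0 overlapped. The log2 fold change at P16 vs E16 was 1.60 (SE 0.504, FDR 0.00697). Without E16 replicate 1 the FDR was 0.107 (log2 fold change 1.502) and without E16 replicate 2 it was 0.129 (1.48).

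The level of mmu-miR-30c-1-3p was 103 and 92.1 CPM at E16, 161, 141, 135 and 144 CPM at P0 and 260.3, 202, 279 and 312 CPM at P16. The 3 times did not overlap, although P0 vs E16 did not pass the test. The change on the log2 scale at P16 vs E16 was 1.43 (SE 0.540, FDR 0.0286). The call was lost without E16 replicate 1 (1.48, FDR 0.147), without E16 replicate 2 (1.16, FDR 0.285) and without P16 replicate 4 (1.32, FDR 0.0549).

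The level of mmu-miR-30c-2-3p was 147 and 66.0 CPM (54 and 38 counts) at E16, 112, 156, 179.9 and 116 CPM at P0 and 383, 234, 266 and 275 CPM at P16. Every P16 library lay above the rest, and the 2 E16 libraries lay far apart, on either side of the lowest P0 library. On the log2 scale the fold change at P16 vs E16 was 1.46 (SE 0.535, FDR 0.0235). Without E16 replicate 2, the lower of the pair, it was 0.79 (FDR 0.452).

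The 5p arms spread widely at P16. The level of miR-30c-5p was 12780.4, 12092, 5393 and 3957 CPM, that of miR-30b-5p was 3073, 981, 744 and 543 CPM, and that of the 3p arm miR-30e-3p was 408, 109, 179 and 179 CPM. With TMM, replicates 1 and 2 were close to the E16 libraries for miR-30c-5p. Replicates 3 and 4 were close to the P0 libraries or below them. For miR-30b-5p replicate 1 was the highest of all 10 cochlear libraries. The TMM factor was 0.647 in replicate 2, 0.983, 1.04 and 1.08 in the other P16 libraries, and 1.33 and 1.29 at E16. As a share of all counts, the 5p members took 0.848% in replicate 2. That share was 2.01% and 2.18% at E16 and 0.510% to 0.705% at P0, so replicate 2 then lay nearer to P0. The log2 fold change was −0.75 for miR-30c-5p (SE 0.390, FDR 0.122), −0.25 for miR-30b-5p (SE 0.410, FDR 0.651) and −0.63 for miR-30e-3p (SE 0.478, FDR 0.302). Without P16 replicate 4 miR-30b-5p turned above 0, at 0.04 (FDR 0.982). Over the fits that left out a library, the highest values were −0.55 for miR-30c-5p and −0.33 for miR-30e-3p. Without P16 replicate 1 all 3 were DE, at −1.11 (FDR 0.0104) for miR-30c-5p, −1.13 (FDR 0.0128) for miR-30b-5p and −1.15 (FDR 0.0430) for miR-30e-3p. The count of DE members was then 6, 3 higher and 3 lower. Without E16 replicate 1 the count was 1 (miR-30c-2-3p) and without E16 replicate 2 it was 0 by edgeR, where DESeq2 on all libraries called 3 and 3 had an unadjusted p under 0.05.

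The split of these calls depended on the scaling. With TMM 3 members were higher and 0 lower, and with library totals 0 were higher and 1 lower, miR-30c-5p at −1.32 (FDR 0.00175). Under library totals miR-30a-3p was at 1.17 (FDR 0.0669), miR-30c-1-3p at 0.98 (FDR 0.162) and miR-30c-2-3p at 0.98 (FDR 0.154). Relative to the median of all miRNAs under that scaling, these 3 were at 1.75, 1.56 and 1.57, and no member changed sign among the 4 scalings in this comparison. With all 21 libraries in a single model they were at 1.72 (FDR 0.0871), 1.55 (FDR 0.191) and 1.58 (FDR 0.0897).

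Cell type markers again moved along with the members. The muscle list (3 of 3 in the table, miR-1a-3p the most abundant, miR-133a-3p at 0 in all 10 cochlear libraries) summed to 473 and 549 CPM at E16, 348, 478, 218 and 327 CPM at P0 and 4053, 1098, 4297 and 2194 CPM at P16. The oligodendrocyte list (2 of 2, miR-338-3p the most abundant) summed to 32.6 and 13.9 CPM at E16 and 489.98, 296, 511 and 431 CPM at P16. The list for mesenchyme and cartilage (none at 0) summed to 22437, 28240.3, 17868 and 15054 CPM at P16, below both E16 libraries, and the miR-183 cluster to 16693 to 38412 CPM at P16 (n = 4). The neuronal list, with miR-124-3p the most abundant at P16, summed to 995 to 1388 CPM there (n = 4), below both E16 libraries. Red blood cell miRNAs (2 of 3 in the table) summed to 10.9 and 22.6 CPM at E16 and had 0 counts at P0 and P16. Their part in the rise of the 3p arms was not tested.

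Between P0 and P16 in the cochlea miR-30b-5p and miR-30a-3p rose. The arm miR-30b-5p was 4.14-fold higher at P16 than at P0, and miR-30a-3p was 2.58-fold higher. Of the 8 members tested 2 were DE, both higher, against 10.5% of the 896 miRNAs in either direction and 3.91% higher. The median log2 fold change over all 896 was 0.05.

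The lowest P16 library of miR-30b-5p, at 543 CPM, lay above the highest P0 library, at 456 CPM. The change on the log2 scale was 2.05 (SE 0.359, FDR 3.76e-07), and it was 1.18 (FDR 0.00478) without P16 replicate 1, the library at 3073 CPM. It was DE under all 18 alternatives run for it, from 1.18 to 2.36. On the log2 scale the fold change of miR-30a-3p was 1.37 (SE 0.400, FDR 0.00647), and the call was lost with all 21 libraries in a single model (1.47, FDR 0.119).

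Both 3p arms of miR-30c had P16 libraries above all P0 libraries without passing the test. For miR-30c-2-3p the log2 fold change was 1.04 (SE 0.426, FDR 0.0859) and for miR-30c-1-3p 0.86 (SE 0.430, FDR 0.174). DESeq2 called both, at 1.14 (adjusted p 0.0215) and 0.96 (adjusted p 0.0197), and so did edgeR when every library had to hold 10 counts or more, at 1.10 (FDR 0.0177) and 0.94 (FDR 0.0180). Without P16 replicate 2 miR-30c-2-3p was DE at 1.22 (FDR 0.0257). For miR-30c-5p the log2 fold change was 0.60 (SE 0.328, FDR 0.225) and for miR-30e-3p 0.66 (SE 0.421, FDR 0.294), and in both the libraries of P0 and P16 overlapped. Without P16 replicate 1 they were at 0.26 (FDR 0.634) and 0.16 (FDR 0.892).

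Markers moved between P0 and P16 as well. The mesenchyme and cartilage list was lower in all 4 P16 libraries than in the 4 at P0, at the levels given above, and the muscle list was higher. The oligodendrocyte list summed to 26.8, 34.1, 6.42 and 66.5 CPM at P0, with miR-219a-2-3p at 0, and to 296 CPM or more at P16. Their part in the rise of miR-30b-5p and miR-30a-3p was not tested.

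**Figure D2:**
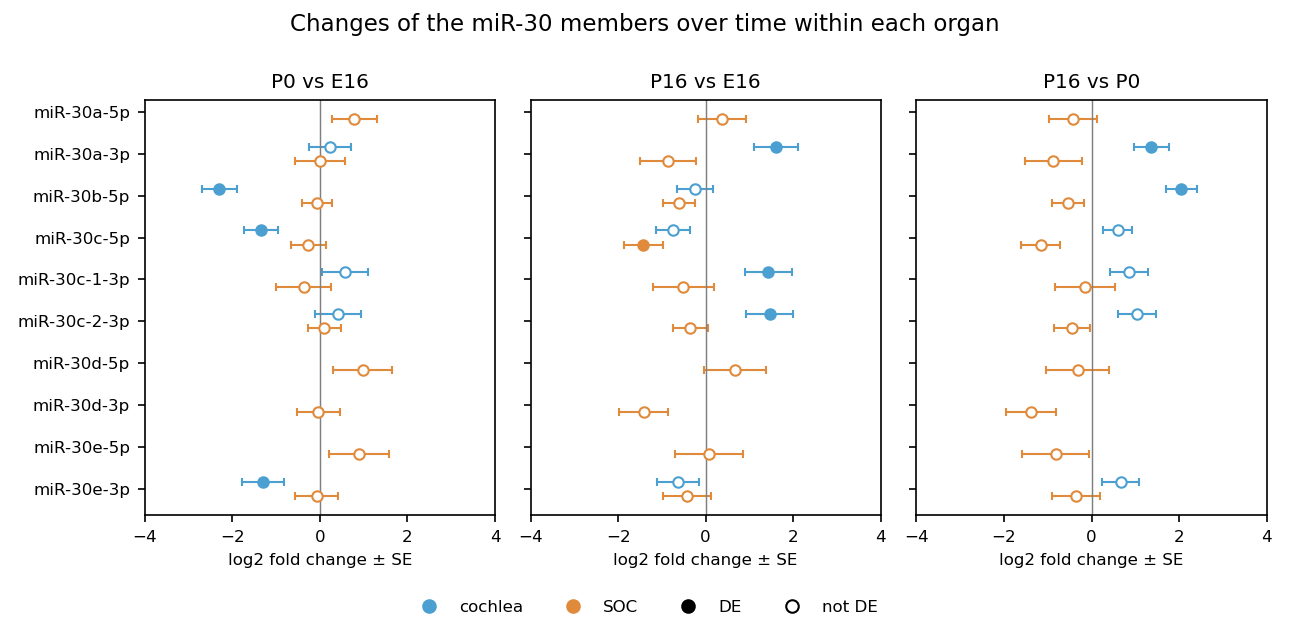
Log2 fold change ± SE of each tested miR-30 member, without the miR-30d arms in the cochlea, in the 3 comparisons of times (horizontal axes), within the cochlea (blue) and within the SOC (orange), with filled points for DE members. The filled points are 3 below 0 at P0 vs E16, 3 above 0 at P16 vs E16 and 2 above 0 at P16 vs P0 in the cochlea, where library totals in place of TMM leave none of the 3 at P16 vs E16, and miR-30c-5p at −1.42 at P16 vs E16 in the SOC.

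Between E16 and P0 in the SOC no member passed the test. The 2 most abundant members, miR-30b-5p and miR-30c-5p, had overlapping levels at both times, as did the 3p arms of miR-30c. Of the 10 members 0 were DE by edgeR, with 0 at an unadjusted p under 0.05 and 0 by DESeq2, against 6.63% of the 694 miRNAs. Over the members the median log2 fold change was −0.01 and over all 694 it was 0.17.

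The level of miR-30b-5p was 1459, 985, 1291 and 1189 CPM at E16 and 1629, 958, 829 and 1293 CPM at P0, with a log2 fold change of −0.06 (SE 0.334, FDR 0.943). The level of miR-30c-5p was 939.9, 1121, 1593 and 675 CPM at E16 and 899.8, 1235, 914 and 565 CPM at P0, with a log2 fold change of −0.26 (SE 0.400, FDR 0.761). The E16 and P0 libraries were interleaved for both. The largest log2 fold change among the members was that of miR-30d-5p, 0.98 (SE 0.669, FDR 0.427), at 1.30 to 3.34 CPM at E16 and 1.51 to 6.42 CPM at P0. With the set as a covariate it was 1.42 (FDR 0.0100) and was not called, because the libraries overlapped, and within set B it was 0.63 (FDR 0.660). Under library totals miR-30b-5p, miR-30d-3p and miR-30e-3p turned above 0, at 0.11, 0.23 and 0.07. So did miR-30c-1-3p and miR-30d-3p with the set as a covariate, at 0.09 (FDR 0.794) and 0.11 (FDR 0.878). Within set B miR-30b-5p was at 0.40 (FDR 0.740), miR-30c-5p at 0.26 (FDR 0.847), miR-30c-1-3p at 0.22 (FDR 0.897) and miR-30d-3p at 1.12 (FDR 0.485), all above 0. The rare arms miR-30a-5p, at 0.79 (FDR 0.400), and miR-30e-5p, at 0.90 (FDR 0.5001), stood higher at P0 in 4 of 4 same-numbered pairs and did not pass, with or without the pairs in the model.

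Between E16 and P16 in the SOC miR-30c-5p fell, and the other members did not pass the test. It was 2.68-fold lower at P16. Of the 10 members 1 was DE, lower, against 41.2% of the 694 miRNAs in either direction and 20% lower. Over the members the median log2 fold change was −0.47 and over all 694 it was 0.08.

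The level of miR-30c-5p at P16 was 594, 269 and 348 CPM (6318, 2537 and 3636 counts), and the 3 libraries lay below all 4 at E16, the lowest of which stood at 675 CPM. The log2 fold change was −1.42 (SE 0.450, FDR 0.0237). The value moved with the library sets. With the set as a covariate it was −0.72 (FDR 0.0490), and in set B by itself (2 E16 libraries, 1 of P0, 1 of P16) it was −0.28 (FDR 0.724), where the lone libraries are assumed to vary like the pair. Over all SOC libraries miR-30c-5p stood at 269 to 565 CPM in set C, 594 to 939.9 CPM in set B and 914 to 1593 CPM in set A. The call was also lost without E16 replicate 3 (−1.18, FDR 0.0667), without P16 replicate 2 (−1.16, FDR 0.112), without P16 replicate 3 (−1.28, FDR 0.0872), without a filter on low counts (−1.44, FDR 0.0581) and with all 21 libraries in a single model (−1.26, FDR 0.0781).

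The level of miR-30d-3p was 14.4, 11.5, 11.4 and 4.34 CPM at E16, 19.0, 9.07, 7.84 and 4.65 CPM at P0 and 4.99, 2.54 and 4.12 CPM at P16. The P16 libraries were low, and 1 of them overlapped with the lowest E16 library, replicate 4. The change on the log2 scale at P16 vs E16 was −1.42 (SE 0.567, FDR 0.0602), and without E16 replicate 4 it was DE at −1.67 (FDR 0.0308). With the set as a covariate it was −0.88 (FDR 0.221), and within set B −0.76 (FDR 0.557).

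The level of miR-30b-5p at P16 was 992, 666 and 773 CPM, of which only the first reached the lowest E16 library at 985 CPM. Its log2 fold change was −0.60 (SE 0.366, FDR 0.198), and −0.70 (FDR 0.0405) with the set as a covariate, not called because of the overlap, and −0.26 (FDR 0.744) within set B. The level of miR-30c-1-3p followed the sets more than the time, at 52.7 to 77.1 CPM in the 4 libraries of set B, 29.4 to 36.4 CPM in the 4 of set A and 11.2 to 16.9 CPM in the 3 of set C, with no overlap. Its log2 fold change at P16 vs E16 was −0.51 (SE 0.693, FDR 0.560), and 0.01 (FDR 0.988) with the set as a covariate and 0.40 (FDR 0.679) within set B. Without P16 replicate 1, the only P16 library of set B, miR-30c-1-3p was DE at −1.78 (FDR 0.0334) and miR-30a-3p at −1.85 (FDR 0.0465).

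The level of miR-30c-2-3p was 80.5, 76.0, 113 and 54.6 CPM at E16, 79.6, 109, 96.1 and 63.4 CPM at P0 and 95.0, 47.9 and 48.1 CPM at P16. The P16 library of set B stood among the earlier libraries and the other 2 below them. Its log2 fold change at P16 vs E16 was −0.35 (SE 0.405, FDR 0.499), and it turned above 0 with the set as a covariate (0.20, FDR 0.579) and within set B (0.65, FDR 0.451). The remaining members of the SOC were rare, and their values at P16 vs E16 were 0.37 for miR-30a-5p (FDR 0.605), −0.86 for miR-30a-3p (FDR 0.291), 0.67 for miR-30d-5p (FDR 0.463), 0.08 for miR-30e-5p (FDR 0.945) and −0.43 for miR-30e-3p (FDR 0.535). With the set as a covariate miR-30a-5p was at 1.21 (FDR 0.0411) and miR-30d-5p at 1.58 (FDR 0.00826), neither called because of overlap. The P16 libraries of miR-30d-5p stood at 8.65, 1.38 and 1.24 CPM, and without the first of them, replicate 1, the change turned to −0.73 (FDR 0.378). The direction of miR-30a-3p turned, to 0.12 (FDR 0.876) with the covariate and 0.71 (FDR 0.315) within set B.

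**Figure D3:**
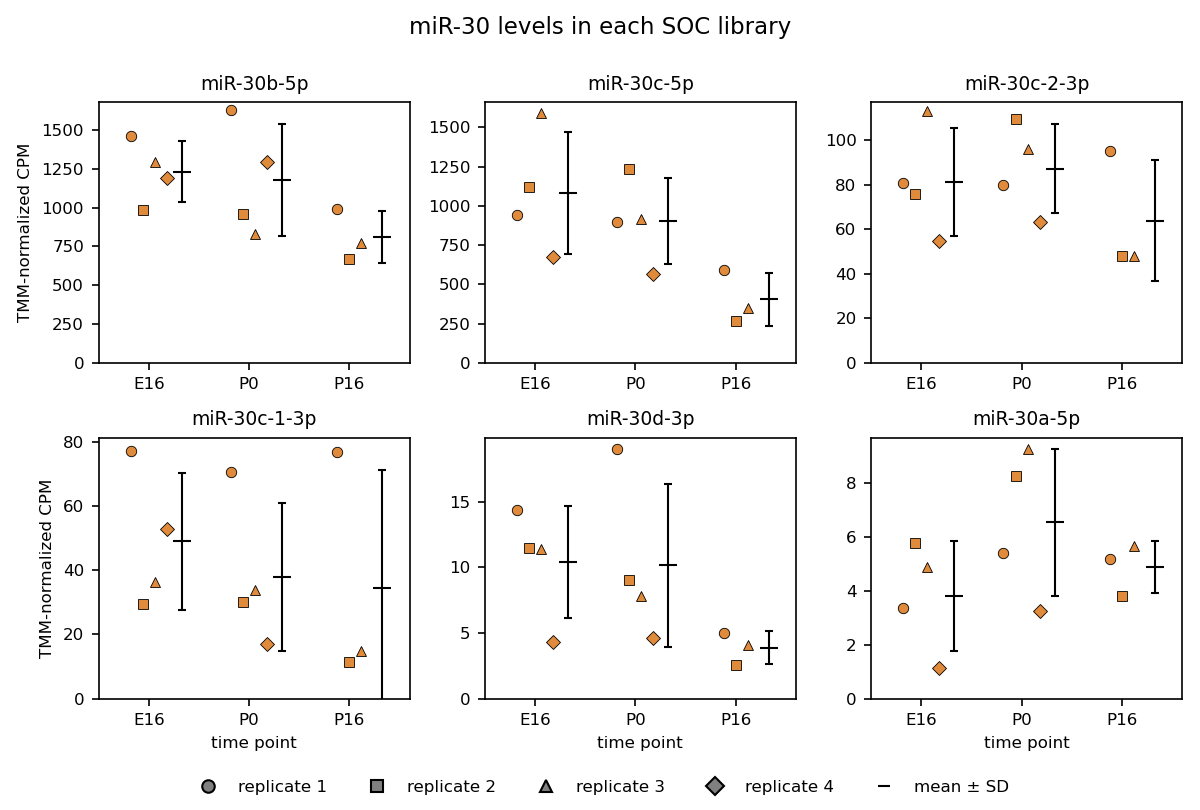
Levels of 6 miR-30 members in each SOC library (vertical axes, TMM-normalized CPM; horizontal axes, time point; marker shape, replicate number; bars, mean ± SD of 4 libraries at E16 and P0 and 3 at P16, with the lower bar of miR-30c-1-3p at P16 ending at the axis). The 3 P16 libraries of miR-30c-5p, at 269 to 594 CPM, lie below the 4 at E16, and for miR-30c-1-3p replicate 1 stands at 70.4 to 77.1 CPM at all 3 times.

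Between P0 and P16 in the SOC miR-30c-5p and miR-30d-3p had the lowest log2 fold changes and no member was DE. The P16 levels of miR-30c-5p, up to 594 CPM, overlapped with the lowest P0 library at 565 CPM. Of the 10 members 0 were DE by edgeR, with 2 at an unadjusted p under 0.05 and 0 by DESeq2, against 16.1% of the 694 miRNAs. Over the members the median log2 fold change was −0.50 and over all 694 it was −0.15, and none of the 10 members had a log2 fold change above 0, against 45.5% of all 694. With the set as a covariate miR-30a-5p and miR-30d-5p turned above 0, at 0.33 (FDR 0.571) and 0.15 (FDR 0.808). In that fit miR-30b-5p was at −0.66 (FDR 0.0387) and was not called, because its libraries overlapped. Within set B miR-30a-3p, miR-30c-1-3p, miR-30c-2-3p and miR-30d-5p were above 0, at 0.17 (FDR 0.874), 0.18 (FDR 0.896), 0.31 (FDR 0.791) and 1.05 (FDR 0.389). Single libraries also turned values above 0, that of miR-30c-1-3p to 0.35, 0.23 and 0.26 without P0 replicate 1, P16 replicate 2 or P16 replicate 3, and that of miR-30d-5p to 0.02 and 0.16 without P16 replicates 2 or 3. Other fits that left out a library lowered miR-30c-1-3p from −0.14 to −1.45, miR-30d-5p from −0.31 to −1.76 and miR-30a-3p from −0.87 to −1.89.

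For miR-30c-5p the log2 fold change was −1.16 (SE 0.446, FDR 0.0846) and for miR-30d-3p −1.39 (SE 0.566, FDR 0.0982). Without P0 replicate 4, a library of set C, both were DE, at −1.35 (FDR 0.0221) and −1.64 (FDR 0.0275). Without P16 replicate 1 miR-30c-5p was DE at −1.46 (FDR 0.0398), and with library totals it was DE at −1.31 (FDR 0.0477), so that the split of higher against lower calls went from 0 and 0 to 0 and 1. In DESeq2 it was at −1.18 (adjusted p 0.0229) and was not called because of the overlap, and with the set as a covariate it was at −0.65 (FDR 0.0591), and −0.55 (FDR 0.595) within set B. For miR-30d-3p these were −0.98 (FDR 0.145) and −1.88 (FDR 0.242), and without P0 replicate 1 it was at −0.89 (FDR 0.269).

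In the SOC the oligodendrocyte list (2 of 2, miR-219a-2-3p the most abundant, none at 0) summed to 376 to 436 CPM at E16 (n = 4) and 2574 to 7748 CPM at P16 (n = 3), while the neuronal list summed to 36910.1 to 116635 CPM at E16 and 24754 to 42886 CPM at P16. The epithelial list (7 of 7, none at 0 at E16 or P16) went from 926 to 1963 CPM at E16 to 49.7 to 146 CPM at P16. The muscle list (3 of 3, with miR-133a-3p at 0 at E16) went from 113 to 292 CPM at E16 to 9.01 to 24.2 CPM at P16, and the red blood cell list (2 of 3, miR-451a the most abundant, none at 0) from 43.6 to 57.8 CPM to 91.9 to 189 CPM. The miR-183 cluster was lower at P16, at the levels given with the tissue labels, and the mesenchyme and cartilage list overlapped between the times. Their part in the fall of miR-30c-5p was not tested.

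Whether a member changed differently in the 2 organs was tested as the difference between the changes, over 545 miRNAs tested in both organs, with 8 members among them. For P16 vs E16 the 3p arms miR-30a-3p and miR-30c-2-3p differed: they were DE and higher at P16 in the cochlea, and did not pass the test in the SOC, where their values were below 0 and, once the set was a covariate, above 0. Of the 8 members 2 had an FDR under 0.05, against 16.9% of the 545 miRNAs. The difference, SOC minus cochlea on the log2 scale, was −2.62 for miR-30a-3p (SE 0.785, FDR 0.0239) and −1.93 for miR-30c-2-3p (SE 0.665, FDR 0.0467). For miR-30c-1-3p it was −2.18 (SE 0.928, FDR 0.106) and for miR-30c-5p −0.84 (SE 0.687, FDR 0.466), which was −0.06 (FDR 0.956) with library totals. The median over all 545 was 0.38. Kit, strain and organ cannot be told apart in these differences.

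These differences were near the threshold. With library totals miR-30a-3p was at −2.05 (FDR 0.0649) and miR-30c-2-3p at −1.29 (FDR 0.168). With the SOC set as a covariate miR-30a-3p was at −1.74 (FDR 0.0398), miR-30c-2-3p at −1.50 (FDR 0.0540) and miR-30c-1-3p passed at −1.68 (FDR 0.0173). Without cochlear E16 replicate 1 miR-30a-3p was at −2.41 (FDR 0.121), and without cochlear E16 replicate 2 it was at −2.56 (FDR 0.109) and miR-30c-2-3p at −1.39 (FDR 0.271). The call of miR-30a-3p was also lost without SOC E16 replicate 2 (−2.46, FDR 0.0535), SOC P16 replicate 2 (−2.35, FDR 0.0626) or SOC P16 replicate 3 (−2.44, FDR 0.0613). Without SOC P16 replicate 1 miR-30a-3p passed at −3.54 and miR-30c-1-3p passed at −3.37 (FDR 0.00559), and the latter passed in DESeq2 at −2.31 (adjusted p 0.0297). Without a filter on low counts miR-30a-3p was at −2.29 (FDR 0.352) and miR-30c-2-3p at −1.61 (FDR 0.608).

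The call of miR-30c-2-3p held in few of the fits that left out a library. It passed in 5 of 21. In the SOC it was lost without E16 replicates 1, 2 or 3 (−1.81, −1.88 and −1.83, FDR 0.0730, 0.0782 and 0.0833), without P0 replicates 1, 2 or 3 (−1.93, −1.91 and −1.91, FDR 0.0542, 0.0576 and 0.0598) and without P16 replicates 2 or 3 (−1.87 and −1.90, FDR 0.0996 and 0.0985). In the cochlea it was lost, beside E16 replicate 2, without any of the P0 replicates 1 to 4 (−1.88, −1.93, −1.68 and −1.87, FDR 0.0540, 0.0555, 0.0818 and 0.0587) and without P16 replicates 1, 3 or 4 (−1.72, −2.002 and −1.95, FDR 0.0702, 0.0541 and 0.0575).

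For P0 vs E16 miR-30b-5p fell in the cochlea and was at −0.06 in the SOC, and the difference did not pass the test. It was 2.17 (SE 0.746, FDR 0.0569) for miR-30b-5p. Of the 8 members 0 passed by edgeR, with 1 at an unadjusted p under 0.05 and 1 by DESeq2 (miR-30b-5p, 2.17, adjusted p 0.0229), against 11.9% of the 545 miRNAs. The median over all 545 was 0.52. The FDR of miR-30b-5p ranged from 0.00674 to 0.146 over 28 alternatives. It passed with library totals (2.88, FDR 0.00674), where miR-30c-5p passed too (1.75, FDR 0.0360), with a minimum of 10 counts per library (2.90, FDR 0.0145) and with the SOC set as a covariate (2.17, FDR 0.00823). It also passed without SOC E16 replicate 1 (2.39, FDR 0.0464), SOC P0 replicate 3 (2.31, FDR 0.0492) or SOC P16 replicate 1 (2.16, FDR 0.0466), and without cochlear P0 replicate 3 (2.49, FDR 0.0345), P16 replicate 1 (2.17, FDR 0.0174) or P16 replicate 4 (2.17, FDR 0.0465).

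The ratio of both arms of a hairpin within a library does not depend on the scaling, and in the cochlea the miR-30c ratio shifted from the 5p arm towards the 3p arms. The log2 ratio of miR-30c-5p to each 3p arm, with 0.5 counts added to both, was tested with limma over all pairs of arms in which both were tested, 279 pairs for the cochlea and 235 for the SOC. Because miR-30c-5p has 2 hairpins, its counts enter both of its ratios. At P16 vs E16 in the cochlea 2 of the 3 tested pairs of members passed, miR-30c-5p with either 3p arm, against 8.96% of the 279 pairs. The median change over all pairs was 0.28.

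The log2 ratio of miR-30c-5p to miR-30c-1-3p was 7.01 and 7.36 at E16 in the cochlea, 4.84, 5.12, 5.36 and 5.64 at P0 and 5.60, 5.87, 4.26 and 3.65 at P16. Both E16 libraries lay above all later ones, and P0 and P16 overlapped. In counts this is 131 and 166 reads of the 5p arm per read of the 3p arm at E16, 29.2 to 50.7 at P0 and 12.7 to 59.7 at P16. The change at P16 vs E16 was −2.34 (SE 0.649, FDR 0.0248 in limma's moderated test with Benjamini-Hochberg adjustment), lower in 4 of 4 P16 libraries. An exact two-sided permutation test gave p = 0.133 (n = 4 and 2), where the smallest p possible is 0.0667.

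The log2 ratio of miR-30c-5p to miR-30c-2-3p was 6.51 and 7.84 at E16, 5.35, 4.98, 4.95 and 5.94 at P0 and 5.05, 5.67, 4.33 and 3.83 at P16. The lower E16 library still lay above all later ones. The change at P16 vs E16 was −2.46 (SE 0.638, FDR 0.0178), with an exact permutation p of 0.0667 (n = 4 and 2), the smallest possible. Without E16 replicate 2 the changes were −1.79 for miR-30c-2 (FDR 0.258) and −2.17 for miR-30c-1 (FDR 0.190), and without E16 replicate 1 that of miR-30c-1 was −2.52 (FDR 0.1197). The call of miR-30c-1 was also lost without P0 replicate 1 (−2.34, FDR 0.0526) or P16 replicate 3 (−2.15, FDR 0.0593). With no trend in the variance prior neither passed (FDR 0.0857 for miR-30c-1 and 0.0724 for miR-30c-2).

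At P0 every cochlear library had a lower ratio than both E16 libraries, and the test was not passed in the main model. At P0 vs E16 the change was −1.95 for miR-30c-1 (SE 0.649, FDR 0.0658) and −1.87 for miR-30c-2 (SE 0.638, FDR 0.0698), with an exact permutation p of 0.0667 for each (n = 4 and 2). By limma 0 of the 3 member pairs passed and 2 had an unadjusted limma p under 0.05, against 8.6% of the 279 pairs. Both passed with a pseudocount of 1 (FDR 0.0383 and 0.0406), over pairs with at least 10 counts of each arm in every library (FDR 0.0392 for both) and without P16 replicate 2 (FDR 0.0376 for both) or P16 replicate 4 (FDR 0.0377 and 0.0469). Without E16 replicate 2 the changes were −1.78 (FDR 0.265) and −1.21 (FDR 0.423), without E16 replicate 1 −2.13 (FDR 0.225) and −2.54 (FDR 0.1195), and with no variance trend the FDR was 0.151 and 0.160. At P16 vs P0 the changes were −0.39 (FDR 0.744) and −0.58 (FDR 0.623), and by limma 0 of the 3 pairs passed, with 0 at an unadjusted limma p under 0.05, against 4.66% of the 279 pairs. Beside limma, the exact permutation test and, for P0 vs E16 in the SOC, a paired exact test, no test was run for the ratios.

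**Figure D4:**
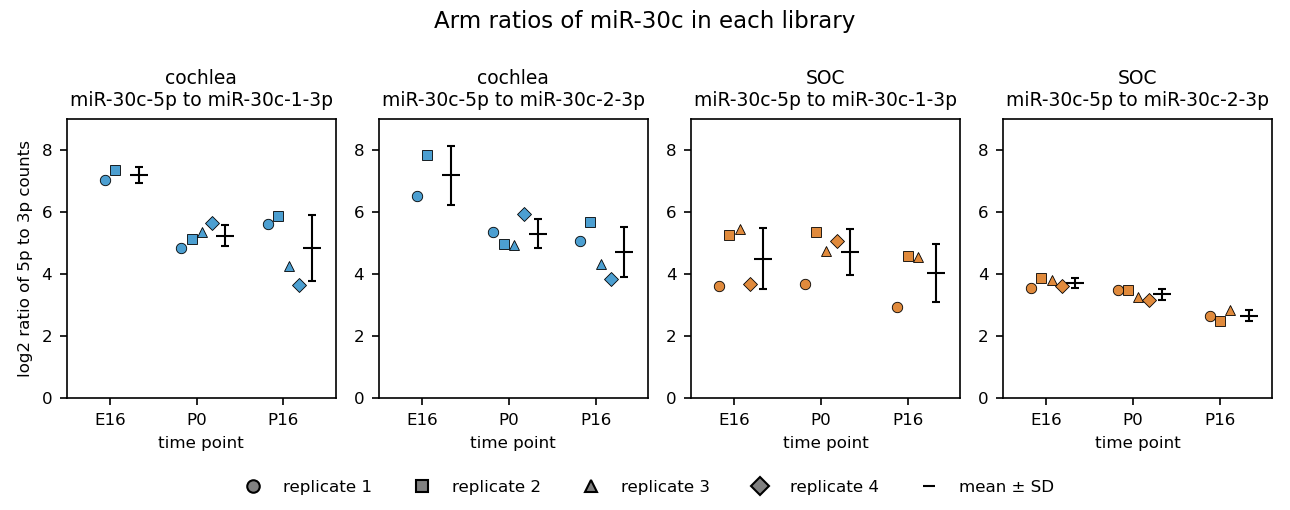
Log2 ratio of the counts of miR-30c-5p to those of miR-30c-1-3p and of miR-30c-2-3p in each library of the cochlea and the SOC (vertical axes; horizontal axes, time point; marker shape, replicate number; bars, mean ± SD of 2 to 4 libraries). In the cochlea the E16 ratios, 6.51 to 7.84, lie above all later ones, and in the SOC the ratio to miR-30c-2-3p is 3.54 to 3.88 at E16 and 2.49 to 2.86 at P16.

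In the SOC the ratio of miR-30c-5p to miR-30c-2-3p did not pass the test, although its libraries were separated by time. It was 3.54, 3.88, 3.81 and 3.63 at E16, 3.50, 3.50, 3.25 and 3.15 at P0 and 2.64, 2.49 and 2.86 at P16. The 3 times did not overlap, and the libraries within a time lay close together in spite of the sets. The change at P16 vs E16 was −1.05 (SE 0.355, FDR 0.0628), with an exact permutation p of 0.0286 (n = 3 and 4), the smallest possible. It passed with the set as a covariate (−0.94, FDR 0.0246), over pairs with at least 10 counts of each arm in every library (FDR 0.0454) and without P0 replicate 4 (FDR 0.0412). By limma 0 of the 5 member pairs passed in the main model, with 2 at an unadjusted limma p under 0.05, against 12.3% of the 235 pairs.

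The ratio to miR-30c-1-3p followed the library sets in the SOC. It was 3.61, 5.25, 5.45 and 3.68 at E16, 3.68, 5.36, 4.75 and 5.06 at P0 and 2.95, 4.57 and 4.55 at P16, lowest in the 4 libraries of set B. The change at P16 vs E16 was −0.47 (SE 0.651, FDR 0.630). For miR-30a the log2 ratio was 1.06, 1.31, 0.90 and −0.37 at E16 and 1.18, 3.02 and 3.19 at P16, on 4 to 30 counts of miR-30a-3p, with a change of 1.74 (SE 0.664, FDR 0.0827). Without P16 replicate 1 it passed at 2.38 (FDR 0.0212). For miR-30d the 3p arm outnumbered the 5p arm in 10 of the 11 libraries, and the change was 1.49 (SE 0.763, FDR 0.173), 2.27 (FDR 0.0527) with the set as a covariate and 0.80 (FDR 0.428) without P16 replicate 1.

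At P0 vs E16 in the SOC the change was −0.37 for miR-30c-2 (FDR 0.895) and 0.22 for miR-30c-1 (FDR 0.981), and 0 of the 5 member pairs passed by limma, with 0 at an unadjusted limma p under 0.05, where 0% of the 235 pairs passed and 12 of the 235 had an unadjusted limma p under 0.05. Same-numbered libraries were taken as pairs here on the data alone, and the labels name no pairs. Replicates 1, 2 and 3 each lay in the same set at both times, so for them pairing and set cannot be told apart. The ratio was lower at P0 in 4 of 4 pairs for miR-30c-2. It was higher in 4 of 4 for miR-30a, whose change was 0.98 (FDR 0.895). A paired exact test, added after the data were seen, gave p 0.125 for both, the smallest possible with 4 pairs. The exact permutation test, which ignores the pairs, gave p 0.0286 for both (n = 4 and 4), also the smallest possible. For both, the ratios at E16 and P0 did not overlap. With the set as a covariate the change of miR-30c-1 turned to −0.18 (FDR 0.780). At P16 vs P0 it was −0.69 for miR-30c-2 (FDR 0.265) and −0.69 for miR-30c-1 (FDR 0.495), the latter −0.15 (FDR 0.874) without P16 replicate 1, and 0 of the 5 passed by limma, with 0 at an unadjusted limma p under 0.05, against 2.13% of the 235 pairs. The exact permutation p of miR-30c-2 was 0.0286 (n = 3 and 4), again the smallest possible.

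Outside the list, and named because they share a hairpin with a member, the pair of miR-30b-5p and miR-30b-3p in the cochlea had a log2 ratio change of −2.89 at P0 vs E16 (SE 0.838, FDR 0.0420). It did not pass at P16 vs E16 (−2.49, FDR 0.0601) or P16 vs P0 (0.41, FDR 0.789), nor in the SOC (FDR 0.895 between E16 and P0, 0.204 between E16 and P16 and 0.580 between P0 and P16). In the cochlea miR-30b-3p was DE at P16 vs E16, at 2.09 (SE 0.572, FDR 0.00154).

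The miRNAs whose levels were most like the sum of the 5p members were looked for among 119 with a mean of at least 100 CPM in each organ, on log2 CPM centred within each organ over the 21 libraries. They were miR-384-3p (Pearson r 0.832), miR-9-3p (0.751), miR-369-3p (0.737), miR-335-5p (0.720) and miR-495-3p (0.713), with a median of 0.166 over the 119. Within the cochlea (n = 10) r was 0.819, 0.679, 0.753, 0.652 and 0.673 in that order, and within the SOC (n = 11) 0.861, 0.888, 0.773, 0.871 and 0.809. Within an organ the libraries share a kit but differ in time point, depth and, in the SOC, set. The part of these in the correlations was not tested, so the values are a description.

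For comparison, the miR-26 family, with 5 members tested in each organ, had 1 DE member in the cochlea at P0 vs E16 and 1 at P16 vs E16, both lower, and in the SOC 1 at P16 vs E16 and 1 at P16 vs P0, both lower. The miR-29 family, with 7 members tested in the cochlea, had 2 lower at P0 vs E16, 1 higher at P16 vs E16 and 3 higher at P16 vs P0. In the SOC 3 of its 7 members were tested and 1 was higher in each of the 3 comparisons. Among all 896 miRNAs tested in the cochlea, 24.4% were DE in either direction from E16 to P0. That share was 29.6% from E16 to P16 and 10.5% from P0 to P16. Among all 694 in the SOC, the shares over these intervals were 6.63%, 41.2% and 16.1% in turn. The difference between the families was not tested, and the shares of all miRNAs are not comparable between the organs.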

How the data were processed

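Small RNA was sequenced from 10 cochlear and 11 SOC libraries, and raw counts of mature miRNAs were deposited by the authors for each of them. The study's methods name Bowtie and a reference based on MirGeneDB, and the submitters' notes name Bowtie2 2.2.5, DESeq2 and mm10. How reads that match several miRNAs were counted is not given in the sources used here. The table had 1647 miRNAs and 0 value columns without a sample. The total count per library was 124400 to 447419 in the cochlea and 8309669 to 18053698 in the SOC, where 3 counts are 5.21 to 23.4 and 0.136 to 0.349 CPM.

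Within each organ, a miRNA was tested with edgeR 4.0.16 (TMM, quasi-likelihood) if 2 or more libraries of some age exceeded 1 CPM. DE calls needed groups whose CPM did not overlap, a fold change that passed 1.5 and a Benjamini-Hochberg FDR under 0.05. Differences between the organs came from the interaction term of organ and time, fitted to the 21 libraries (FDR under 0.05). Arm ratios, with a pseudocount of 0.5, were tested with limma 3.58.1 (FDR under 0.05) and with an exact permutation test. All members were named, with the 5 miRNAs of highest correlation with their 5p sum. Members and lists were chosen with earlier results of these data known.

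The alternatives comprised library totals, DESeq2 1.42.0, no filter, RLE size factors, at least 10 counts in every library, a single model of all 21 libraries, the replicate number as a block, no overlap criterion, the SOC set as a covariate or set B alone, a pseudocount of 1, no variance trend, and leaving out each library. Whether equal replicate numbers pair the libraries was checked from the deviations from the group means. In the SOC, same-numbered libraries of P0 and E16 deviated together in 4 of 4 pairs (r 0.251 to 0.490). By the rule used they were therefore taken as pairs on the data alone, and no other comparison met the rule. Different-numbered libraries of these times exceeded r 0.1 in 2 of 12 pairs, with r up to 0.409, and replicates 1, 2 and 3 each kept their set. The code ran in R 4.3.3 and, with numpy 2.4.6, matplotlib 3.10.9 and pandas 2.3.3, in Python 3.11.15, and it was tested on simulated data.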

Additional observations from a re-analysis of the deposited data

Results flagged for a closer look

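The change of miR-30a-3p from E16 to P16 differed between the organs by the test of the difference, by −2.62 on the log2 scale (SOC minus cochlea, edgeR FDR 0.0239). The change of miR-30c-2-3p over the same times differed by −1.93 (FDR 0.0467). That second call was lost in 16 of 21 fits with 1 library left out, with library totals (−1.29, FDR 0.168), without a filter on low counts (FDR 0.608) and with the SOC library set as a covariate (FDR 0.0540). The first was lost in 5 of the 21, with library totals (−2.05, FDR 0.0649) and without the filter (FDR 0.352). Organ, kit and strain cannot be told apart in both. In 48 groups of 4 libraries 0 had a library far from the others by Dixon's criterion. It was applied to groups of 4 only, so cochlear E16 and SOC P16 were not examined. Cochlear miR-30b-5p at P16, at 3073 CPM in replicate 1 and 543 to 981 CPM in the others, did not meet it.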

How the results depend on the processing

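The count of DE members moved with these settings, and the cause was not tested. With library totals it went from 3 to 1 in the cochlea at P16 vs E16 and from 0 to 1 in the SOC at P16 vs P0, and the members whose change differed between organs went from 0 to 2 at P0 vs E16 and from 2 to 0 at P16 vs E16. With DESeq2 it went from 2 to 4 in the cochlea at P16 vs P0 and from 0 to 1 and from 2 to 3 for the differences between organs at P0 vs E16 and P16 vs E16. With at least 10 counts in every library, where fewer miRNAs are tested, it was 4 in the cochlea at P16 vs P0, and 1 and 1 for the differences between organs at P0 vs E16 and P16 vs E16; in the SOC arm ratios 1 pair passed in place of 0. With no filter on low counts it went from 1 to 0 in the SOC at P16 vs E16 and from 2 to 0 for the difference between organs there. With all 21 libraries in a single model it was, in the cochlea, 1 at P0 vs E16, 0 at P16 vs E16 and 1 at P16 vs P0, and 0 in the SOC at P16 vs E16. With no variance trend 0 cochlear arm ratios passed at P16 vs E16 in place of 2. With the SOC set as a covariate 1 SOC arm ratio passed in place of 0 and 1 member differed between organs at P0 vs E16 in place of 0, while at P16 vs E16 2 differed as before, with miR-30c-1-3p in place of miR-30c-2-3p, and within set B alone 0 were DE in the SOC at P16 vs E16.

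With the replicate number as a block the count went from 3 to 1 in the cochlea at P0 vs E16. There miR-30c-5p (−1.05, FDR 0.133) and miR-30e-3p (−1.22, FDR 0.145) lost the call. At P16 vs E16 the count went from 3 to 0 in the cochlea, the cochlear arm ratios from 2 to 0 and the SOC arm ratios from 0 to 1. The differences between organs went from 2 to 3 at P16 vs E16. These libraries share only a number, with deviations correlated above 0.1 in 1 of 2 pairs (cochlea P0 and E16), 0 of 2 (P16 and E16), 0 of 4 (P16 and P0) and, in the SOC, 0 of 3 (P16 and E16) and 1 of 3 (P16 and P0). Between P0 and E16 in the SOC, where same-numbered libraries were taken as pairs, the block changed no call.

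Leaving out each library in turn gave counts from 2 to 3 at P0 vs E16, 0 to 6 at P16 vs E16 and 2 to 3 at P16 vs P0 in the cochlea, and, in the same order, 0 to 0, 0 to 3 and 0 to 2 in the SOC, 0 to 2 for the cochlear and 0 to 1 for the SOC arm ratios, and 0 to 1 and 0 to 3 for the differences between organs. Where this left 1 library in a group, it was assumed to vary like the others. Of 1841 values of 94 results under the alternatives, 1731 stayed on their side of the threshold, 66 lost and 44 gained the threshold, and 0 reversed a call. Most of the 94 results were not called in the main fit, and only called results can lose a call. The 66 losses therefore all fell on called results, and the 1731 do not measure how stable the calls were. Of the 1731, 104 that were not called in either fit had the opposite sign. Set B alone gave no value for miR-30e-5p. Several members had under 100 counts in both organs, which limits these tests.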
